A study of Mus musculus with 15 samples.

Results

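The comparison set 3 primary Myc tumours against 3 samples of GFP-negative cerebellar cells, 6 of the 15 mouse samples of the series, over the 17097 genes that had a probe set assigned to them alone. The tumours carried the source label Myc tumors. They grew in the cerebral cortex of immunocompromised nude mice after injection of cerebellar cells that were Cdkn2c-/-, Trp53-/- and Atoh1-GFP and had been infected with Myc. Nude mice lack a thymus and mature T cells but keep macrophages, B cells and natural killer cells. The GFP-negative cells shared with the injected cells the loss of Cdkn2c and of Trp53 and the reporter. They were sorted by flow cytometry from cerebella of Cdkn2c-/-, Trp53-/-, Atoh1-GFP mice at postnatal day 6. Their source label reads GFP negative spontaneous tumor, whereas the design text describes sorted cerebellar cells, and the design text was followed here. The other 9 samples were 3 Shh tumours (Cdkn2c-/-, Trp53Fl/Fl, Nestin-Cre), 3 GFP-positive samples sorted from the same kind of cerebella and 3 secondary Myc tumours grown from transplanted sphere cells of primary ones.

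Atoh1 is the transcription factor of the upper rhombic lip that specifies granule neuron progenitors, so an Atoh1-GFP reporter marks that lineage. Cells without GFP are therefore the remainder of the early postnatal cerebellum, which includes Bergmann glia and astrocytes, interneuron precursors, oligodendrocyte precursors, microglia, vascular and blood cells. Myc is a transcription factor that binds E-boxes with its partner Max and is known for driving ribosome production, nucleotide synthesis, glycolysis and the cell cycle. High Myc marks an aggressive subgroup of human medulloblastoma, the cerebellar tumour of childhood that these mice model.

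RNA from each sample was hybridised to 1 Affymetrix HT_MG-430_PM array, and values are log2 signals as the authors deposited them. A signal below 4.77, which 95% of the values of 23 nonspecific control probe sets did not exceed, was read as not separable from background. Pearson correlations across genes within a group ran from 0.97 to 0.974 for the tumours and from 0.963 to 0.983 for the GFP-negative cells. Array GFP-negative 3 had the narrowest interquartile range of the 15 arrays, 2.989 log2. A gap separates its sample title number from those of the other GFP-negative samples, but no label names a run. Myc 3 read highest of the 3 tumours for most oligodendrocyte, vascular, fibroblast and immediate early genes, as given beside those results. GFP-negative 3 and Myc 3 are called the 2 arrays that stood apart, and results without them are given for some of the lists and genes that differed. The labels do not say whether samples of a group came from separate animals, pools or injections, so the spread behind each p-value is that of these samples only and may be technical. The tumours were passed over a Percoll gradient and the cerebellar cells were sorted, which means that preparation, age, site of growth and group cannot be told apart.

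The labels were checked against the genes that define them. Atoh1 read 3.75, 3.96 and 4.55 in the GFP-negative cells, below background on every array, and 4.49, 4.82 and 4.55 in the tumours. GFP-positive cells averaged 8.92. Cdkn2c, the gene deleted in the injected and the sorted cells, was below background on all 6 arrays (3.31 to 3.70). For Trp53 there was no probe set assigned to that gene alone, so it was not measured. Myc read 8.41, 5.21 and 9.0 in the tumours and 8.70, 8.55 and 8.56 in the GFP-negative cells. Myc 2 stood well below the other arrays, the groups overlapped, and the difference of -1.06 ± 0.74 (standard error) did not pass (adjusted p = 0.31) and turned to 0.10 without Myc 2. Myc was read by 1 probe set, and whether it detects the introduced sequence was not given.

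The tumours differed from GFP-negative cells in 5772 of the 17097 genes (33.8%) at an adjusted p below 0.05 in limma's moderated test. Of these, 3260 genes (19.1%) were higher and 2512 (14.7%) were lower in the tumours. At least a 2-fold change was seen in 3613 genes (21.1%), 1868 higher (10.9%) and 1745 lower (10.2%). The falls were the larger ones, with a median of -1.41 against 1.09 for the rises and 111 falls against 25 rises of at least 4 log2. The median over all genes was 0.05. The split between directions moved with the scaling: 56.5% of changed genes were higher as deposited, 67.8% with each array centred on its median gene, which moved the median of all genes to 0.26, and 43.5% after cyclic loess. Because the samples are mixtures of cells, fewer cells of a type and less RNA per cell cannot be told apart in any of these values.

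**Figure D1:**
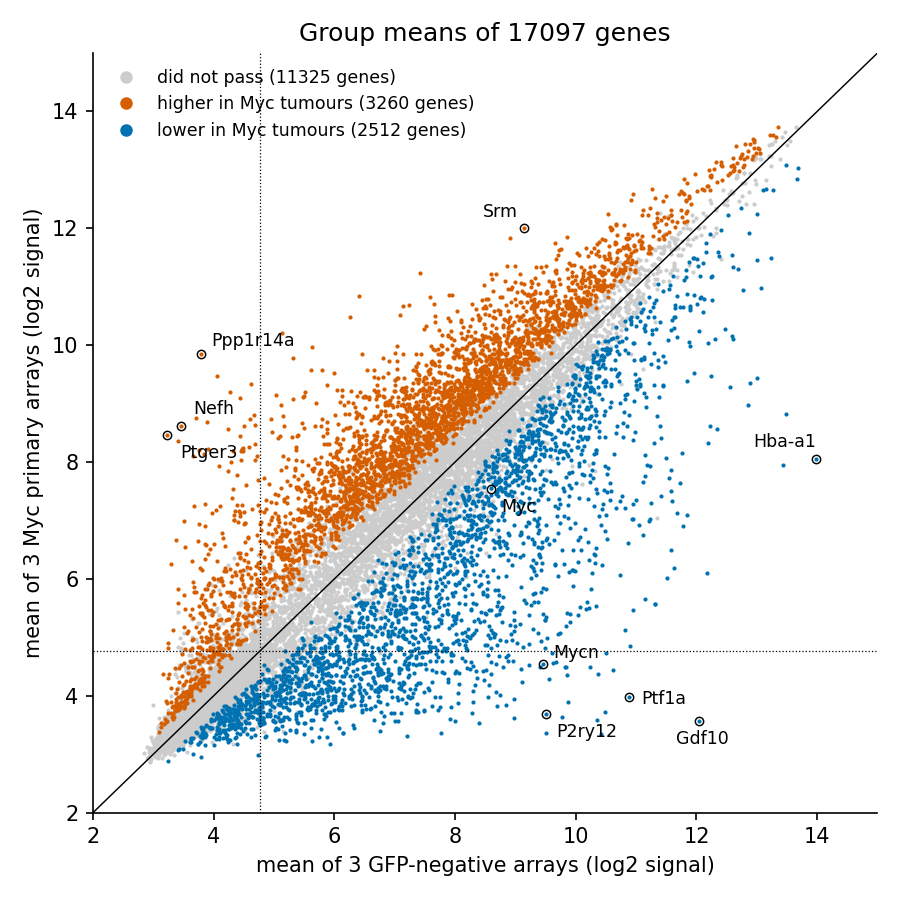
Mean log2 signal of each of 17097 genes over the 3 GFP-negative arrays (x axis) and the 3 Myc primary arrays (y axis). Orange points are the 3260 genes higher in the tumours, blue points the 2512 lower genes and grey points those that did not pass. Dotted lines mark the background level of 4.77 and the solid line equal means. Blue points reach further from the line than orange ones.

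Growth genes rose as a block. All 27 measured genes of ribosome biogenesis were higher in the tumours, with a median difference of 1.96, against 19.1% of all genes and a median of 0.05. The arrays of the 2 groups did not overlap for any of the 27, whereas 40.9% of all genes were non-overlapping in either direction and 24.0% were so with the tumours higher. The list medians were 10.24, 10.09 and 10.14 in the tumours and 8.15, 8.26 and 7.82 in the GFP-negative cells. After cyclic loess, and on the 6 arrays alone, 24 of the 27 were higher.

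Nop56, a core protein of box C/D ribonucleoproteins that guide ribosomal RNA methylation, read 11.96, 11.76 and 11.82 in the tumours and 9.87, 10.05 and 9.68 in the GFP-negative cells, a rise of 1.99 ± 0.12 (adjusted p = 2.6e-07). Fbl, fibrillarin, the methyltransferase of the same particles, rose by 1.44 ± 0.10 from 10.66, 10.52 and 10.55 to 12, 12.08 and 11.98. Polr1a, the largest subunit of RNA polymerase I, read 9.37, 9.31 and 8.97 against 6.87, 6.90 and 6.42 and rose by 2.49 ± 0.17 (adjusted p = 8.2e-07). In each of these genes the lowest tumour lay more than 1 log2 above the highest GFP-negative array. Rrp9, a component of the U3 particle that cleaves the ribosomal RNA precursor, rose by 2.71 ± 0.21, and Nolc1, a nucleolar phosphoprotein, by 2.06 ± 0.15. The other members rose by 0.56 to 2.72. The smallest rises were least stable. Ubtf, a polymerase I factor (0.56), Rrn3 (0.96) and Ncl (0.64), chosen here after their values were seen, lost their call under cyclic loess and on the 6 arrays alone, and Ncl lay close to background (5.81, 5.29 and 5.35 against 4.60, 4.75 and 5.19).

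The promoters of these genes were searched for CACGTG, the palindromic E-box that Myc and Max bind in textbook accounts, in RefSeq windows from 250 bases before to 50 bases after the start (GRCm38.p6). It occurred in 7.15% of all 32851 windows. Among the 13605 measured genes with a window it occurred for 10.2%, for 13.5% of genes higher in the tumours (359 of 2659), for 10.5% of genes lower among 2003 and for 9.16% of those that did not pass. Of the 22 ribosome biogenesis genes with a window, 6 held it (27.3%). The share was no higher in that list than in some that did not rise, at 30.0% (3 of 10) for immediate early and stress genes and 36.4% (4 of 11) for p53 targets. Other lists that rose differed. The motif occurred for 20.0% (3 of 15) in nucleotide, one-carbon and polyamine synthesis and for 0 of 8 in neuronal cytoskeleton and synapse. DNA replication (10.0%), mitosis (10.5%) and glycolysis (11.8%) were near the share of all measured genes. These are shares of letters, with no binding measured. The 2 members that held the motif before the start are printed 5′ to 3′ because they join the motif to a gene that rose; the capitals mark CACGTG.
Nop2 promoter: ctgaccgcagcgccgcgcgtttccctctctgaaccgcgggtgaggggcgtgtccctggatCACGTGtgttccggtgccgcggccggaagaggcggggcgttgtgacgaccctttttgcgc
Rrn3 promoter: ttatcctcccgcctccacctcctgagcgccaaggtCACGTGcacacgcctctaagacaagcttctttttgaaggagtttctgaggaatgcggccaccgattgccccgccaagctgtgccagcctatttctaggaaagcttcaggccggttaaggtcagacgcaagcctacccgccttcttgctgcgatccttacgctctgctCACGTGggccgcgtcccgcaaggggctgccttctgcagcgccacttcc
The Nop2 stretch lies at chr6:125131763-125131882 on the plus strand, with the motif 60 bases before the start. Nop2, a ribosomal RNA methyltransferase, read 9.58, 9.71 and 9.28 in the tumours against 7.05, 7.10 and 6.49, a rise of 2.64 ± 0.23 (adjusted p = 3.7e-06). The Rrn3 stretch lies at chr16:13780449-13780698 on the plus strand, with motifs 215 and 48 bases before the start. Rrn3, which brings RNA polymerase I to its promoter, read 8.45, 8.34 and 8.74 against 7.97, 7.70 and 6.99, a rise of 0.96 ± 0.27 (adjusted p = 0.015) that lost its call without Myc 3 or GFP-negative 3.

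All 17 measured genes of nucleotide, one-carbon and polyamine synthesis were higher as well, with a median of 1.53 and no overlap between groups. Among all genes 19.1% were called higher and 24.0% were non-overlapping with the tumours higher. The count was 14 after cyclic loess, on the 6 arrays alone, and without GFP-negative 2, Myc 2 or Myc 3. Srm, spermidine synthase, read 12.01, 12 and 12 in the tumours and 9.49, 9.47 and 8.50 in the GFP-negative cells, a rise of 2.85 ± 0.21 (adjusted p = 1e-06). The tumours were nearly equal in this gene and far from the other group. Odc1, ornithine decarboxylase, the rate-limiting enzyme of polyamine synthesis and a classic Myc target, rose by 2.23 ± 0.20, and Sms, spermine synthase, by 1.64 ± 0.13. Shmt2, the mitochondrial serine hydroxymethyltransferase, read 9.52, 10.27 and 9.39 against 7.18, 7.03 and 6.52, and its cytosolic counterpart Shmt1 showed the largest rise of the list, 3.39 ± 0.32. Ppat, the first committed enzyme of purine synthesis, rose by 2.11 ± 0.16, Cad, the enzyme that starts pyrimidine synthesis, by 2.58 ± 0.27, and Ctps, CTP synthase, by 1.52 ± 0.13. The serine synthesis enzymes Phgdh (0.62, adjusted p = 0.046) and Psat1 (0.75, adjusted p = 0.034) passed narrowly and lost the call under cyclic loess and without GFP-negative 2.

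**Figure D2:**
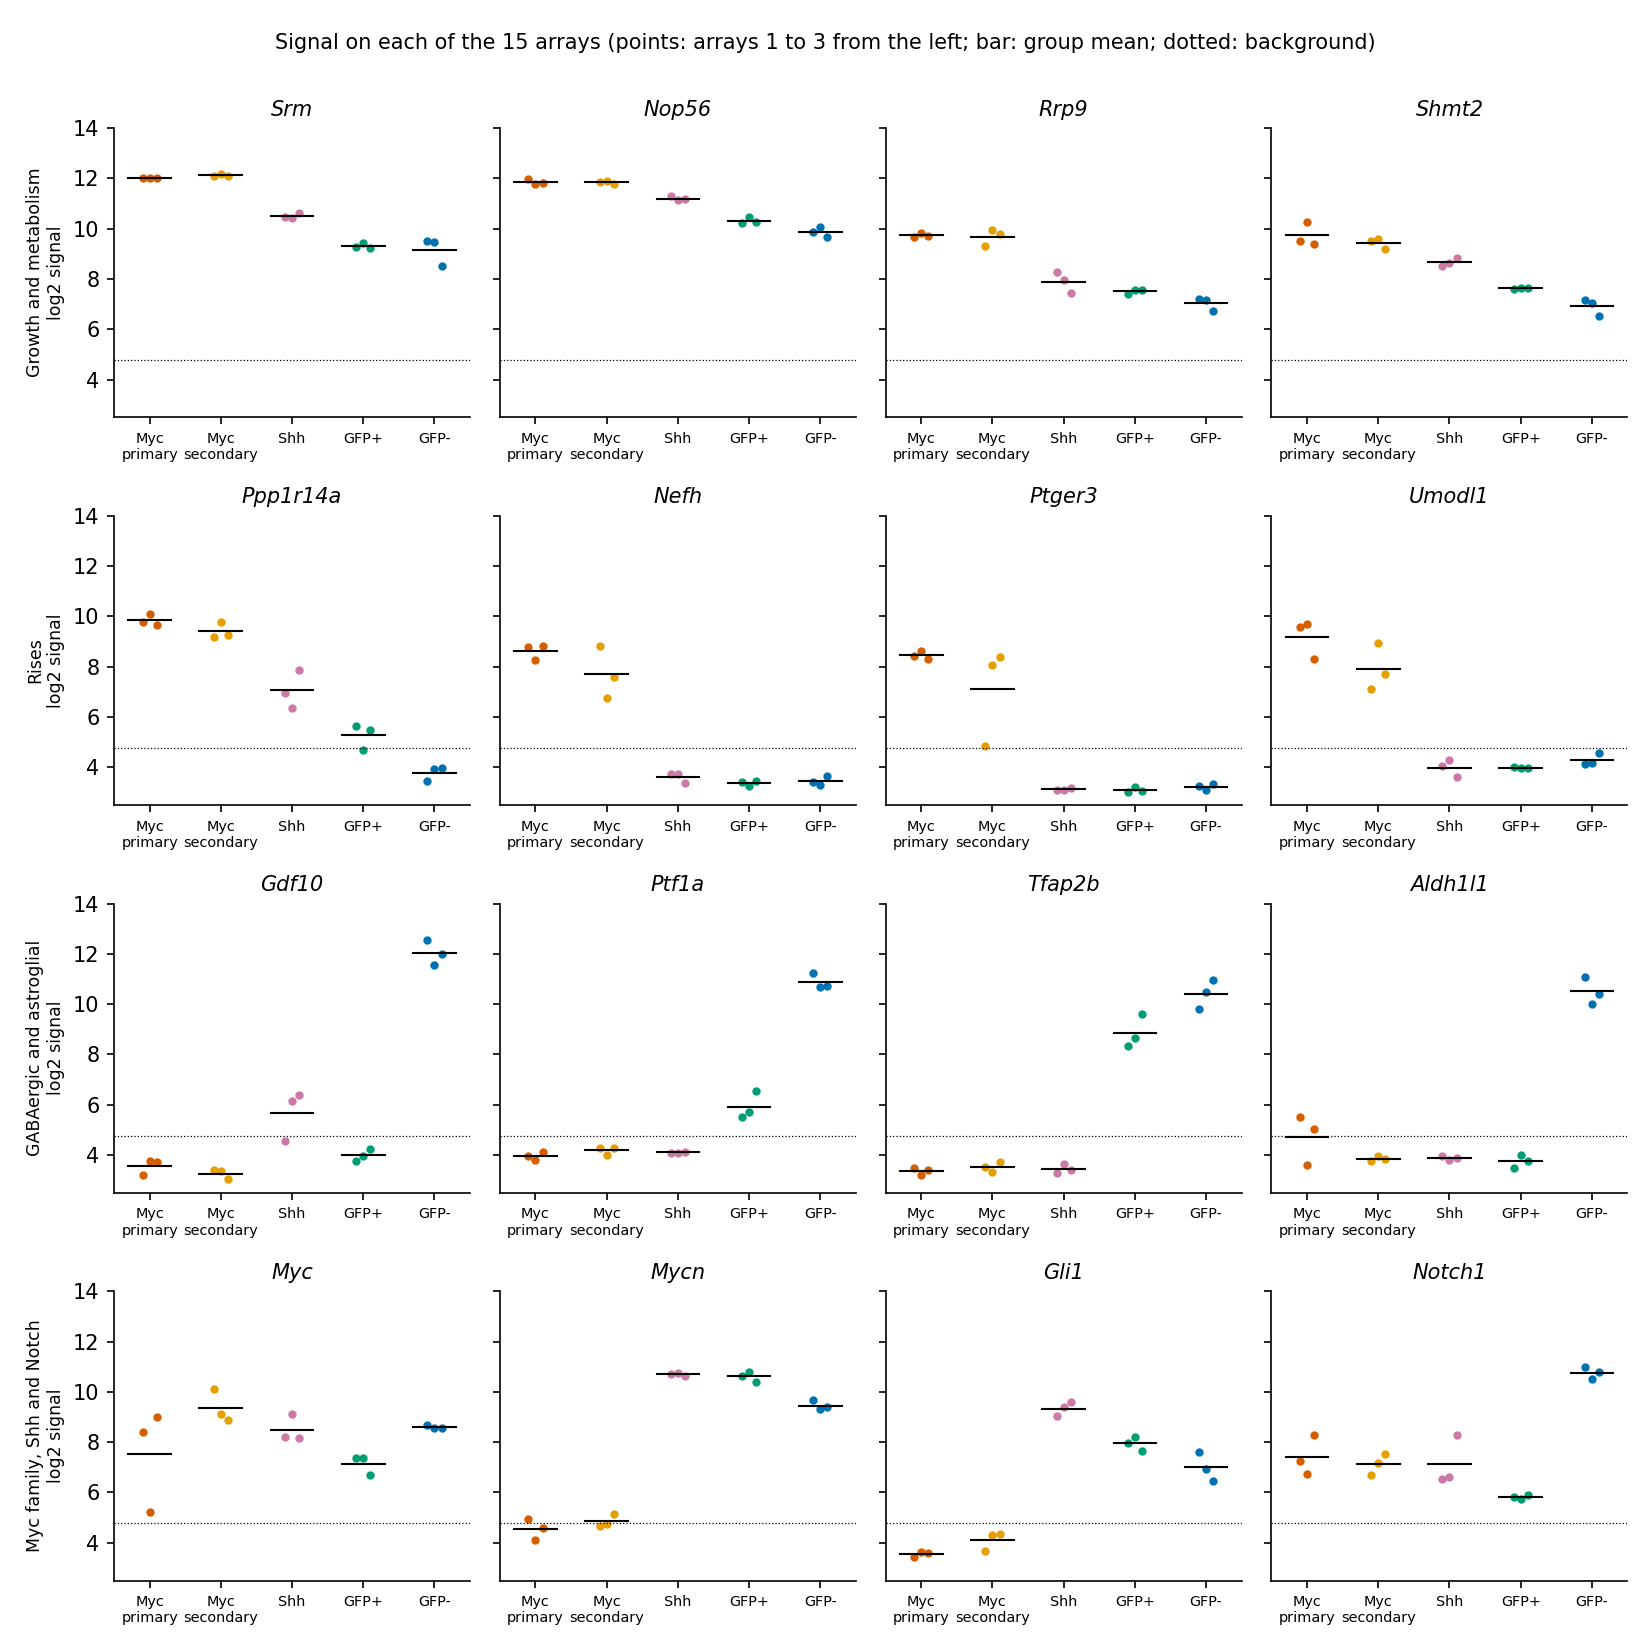
Log2 signal of 16 genes on all 15 arrays, with 1 point per array, a bar at each group mean and a dotted line at the background of 4.77. The top row holds growth and metabolism genes, the next row rises, the third row GABAergic and astroglial genes and the bottom row Myc family, Shh and Notch genes. Srm lay at 12 to 12.01 in the primary tumours, and Gdf10 lay below background in them and between 11.56 and 12.56 in GFP-negative cells.

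Of 18 measured genes of glycolysis, 13 rose and 2 fell, with a median of 1.41. Pfkp, the platelet-type phosphofructokinase, read 9.34, 9.86 and 9.59 in the tumours and 6.88, 7.50 and 6.73 in the GFP-negative cells (2.56 ± 0.31, adjusted p = 4.2e-05). Pkm, pyruvate kinase, rose by 1.55 ± 0.20, the glucose transporter Slc2a3 by 1.80 ± 0.25, and Ldha, lactate dehydrogenase A, by 1.40 ± 0.21. Slc16a3, the lactate exporter, was below background in all GFP-negative arrays and read 5.12, 6.21 and 5.30 in the tumours. Myc 2 was the highest of the 3 tumours in 15 of the 18 genes. The 2 genes that fell were Ldhb (-0.68) and Aldoc (-2.58), the aldolase of astrocytes and Purkinje cells, and neither kept its call without GFP-negative 1 or without Myc 2. Gapdh (0.21, adjusted p = 0.19), Slc2a1 (-0.53, adjusted p = 0.44) and Slc16a1 (-0.02, adjusted p = 0.93) did not pass.

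DNA replication genes were higher in 18 of 24 cases, with a median of 1.13, and none fell. Cdt1, the licensing factor that loads the MCM helicase, read 11.44, 11.48 and 11.18 against 9.86, 10.00 and 10.06 (1.39 ± 0.13, adjusted p = 5.2e-06). Orc6, a subunit of the origin recognition complex, rose by 1.20 ± 0.17, Mcm10 by 1.49 ± 0.22, Mcm2 by 1.47 ± 0.24 and Pole, the leading-strand polymerase, by 1.17 ± 0.20. Pcna, the sliding clamp, was high in both groups (12.29, 12.48 and 12.44 against 12.52, 12.45 and 12.57) and did not pass. On the 6 arrays alone, and without the 2 arrays that stood apart, 12 of the 24 were higher. Mitotic genes showed smaller differences. In that list 15 of 23 rose, none fell and the median was 0.57. Espl1, separase, rose by 1.05 ± 0.16, Cdk1 by 0.92 ± 0.15, Kif20a by 1.80 ± 0.30, Ube2c by 0.98 ± 0.17 and Birc5, survivin, by 0.82 ± 0.17. Mki67, the proliferation antigen, read 10.83, 10.56 and 10.75 against 11.18, 11.02 and 10.89 and did not pass (-0.32, adjusted p = 0.29). The mitotic count dropped to 9 on the 6 arrays alone and without GFP-negative 2, GFP-negative 3 or Myc 3, to 6 without the 2 arrays that stood apart, and after cyclic loess it was 7 higher and 3 lower.

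Of 21 genes of G1 control, 7 rose (33.3%) and 3 fell (14.3%), with a median of 0.22, beside 19.1% higher and 14.7% lower among all genes. E2f1, the activator of S-phase genes, read 8.00, 8.01 and 7.83 against 6.72, 6.89 and 6.47, a rise of 1.25 ± 0.13. Ccne1, cyclin E1, rose by 1.73 ± 0.22, E2f2 by 1.61 ± 0.25 and Cdk4 by 0.76 ± 0.14. Rbl1, which encodes the pocket protein p107, fell by 1.39 ± 0.32, but not when its probe sets were averaged. Rb1, the retinoblastoma protein, fell by 1.08 ± 0.26, a call lost on the 6 arrays alone, and Ccnd2 by 1.07 ± 0.26, a call lost without the 2 arrays that stood apart. Ccnd1, the cyclin D of Shh-driven progenitors, rose by 0.88 ± 0.22 and lost its call under cyclic loess and on the 6 arrays alone, and without Myc 2 its difference moved by more than 1.5 times. Cdkn2a, which encodes the inhibitors p16Ink4a and p19Arf, read 7.36, 4.34 and 7.92 in the tumours and was below background in all GFP-negative arrays (3.19, 3.41 and 3.99; 3.01 ± 0.74, adjusted p = 0.0068). Myc 2 was low for Cdkn2a, as it was for Myc. On the 6 arrays alone 4 genes rose and 2 fell, and Cdkn2a did not pass.

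**Figure D3:**
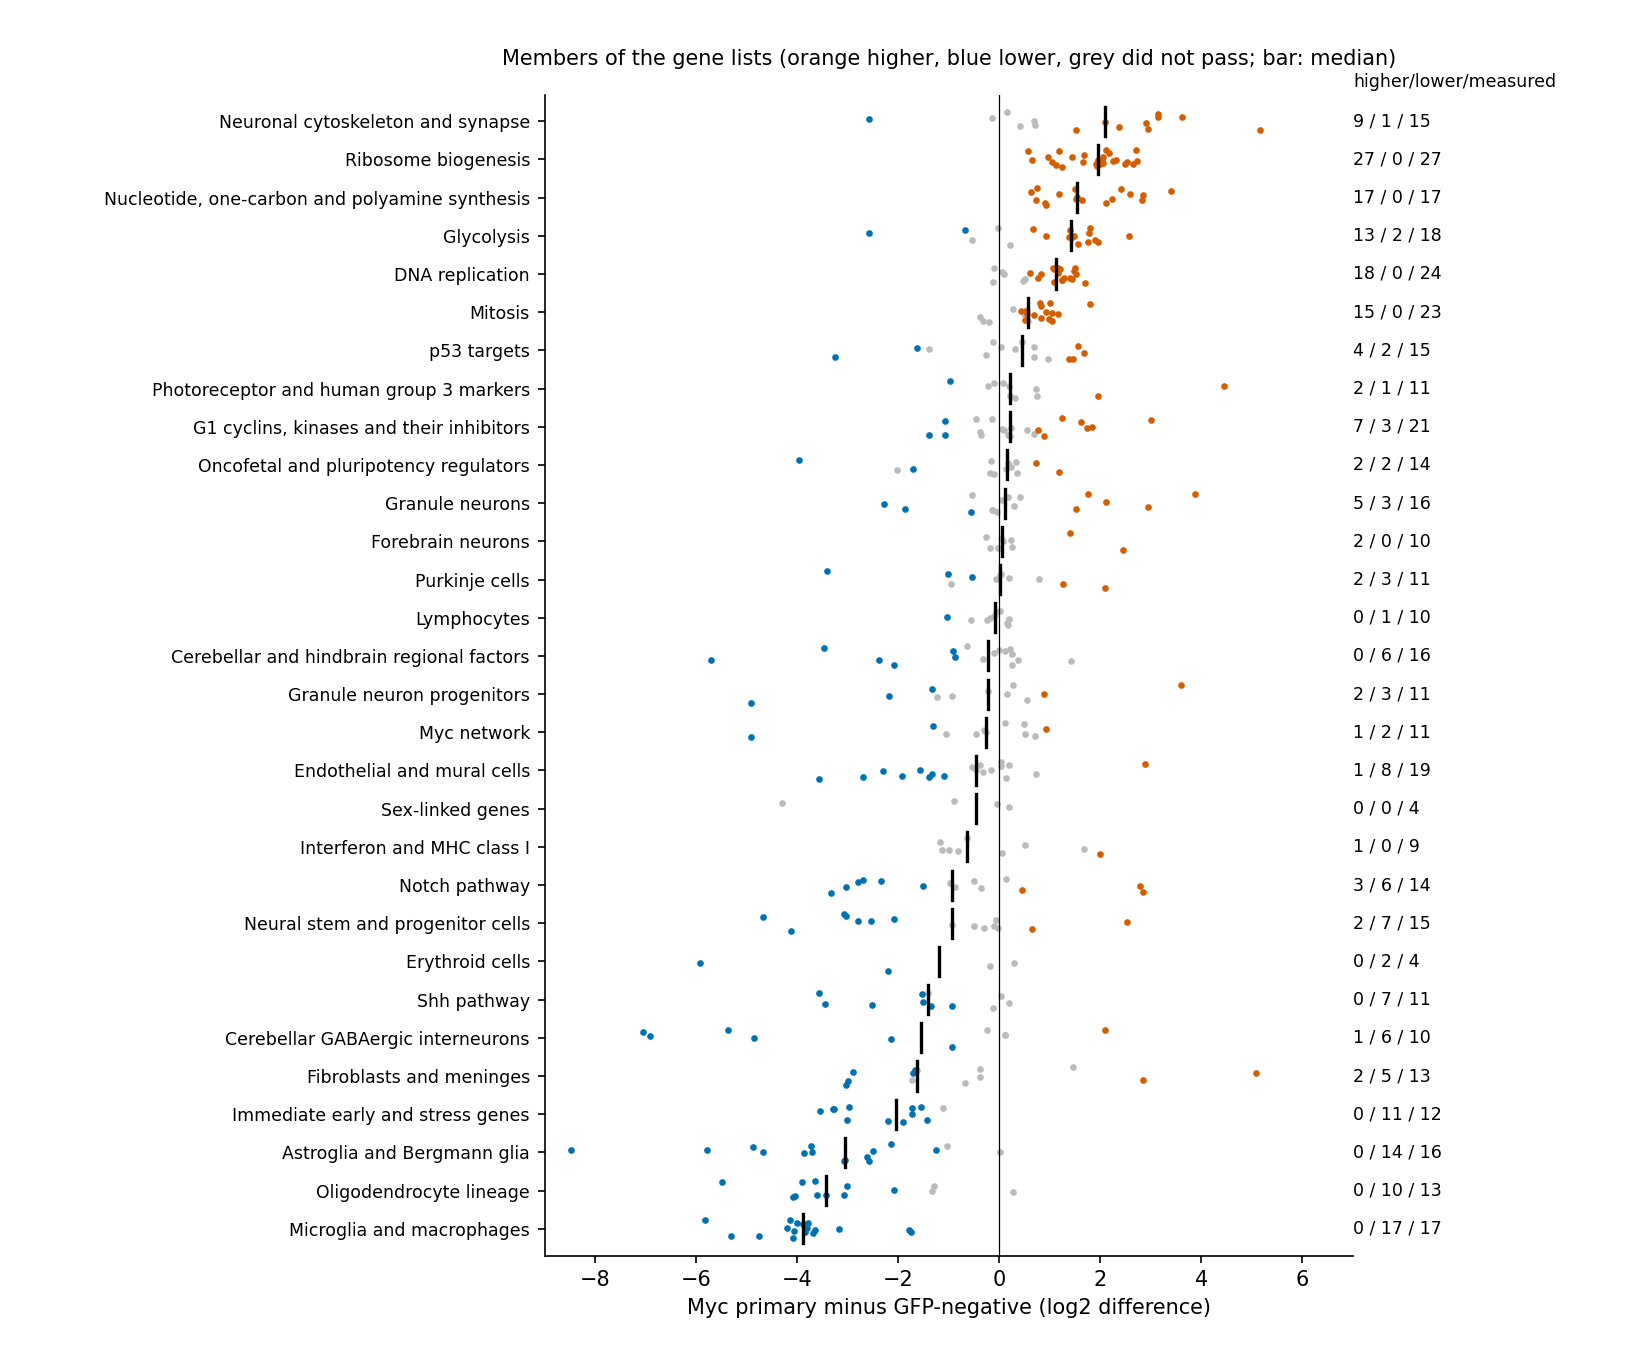
Difference in log2 signal between Myc primary tumours and GFP-negative cells for each measured member of the 30 gene lists, ordered by list median (black bar). Orange points rose, blue points fell and grey points did not pass; numbers at the right give higher, lower and measured members. Ribosome biogenesis lies wholly to the right, with 27 of 27 higher, and microglia wholly to the left, with 17 of 17 lower.

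Among the 11 measured genes of the Myc network, 1 rose (9.09%) and 2 fell (18.2%), with a median of -0.27, beside 19.1% and 14.7% of all genes. Mycn, the paralogue that Shh induces in granule neuron progenitors, read 4.94, 4.10 and 4.58 in the tumours and 9.66, 9.30 and 9.41 in the GFP-negative cells, a fall of 4.92 ± 0.20 (adjusted p = 1.3e-08). Of its 3 probe sets 2 were lower and 1 was higher. Their mean gave a rise of 0.79, so the rise of that 1 outweighed the 2 falls in size. The direction of Mycn thus depends on the probe set, although it is counted here among the genes that fell. Mycl read 7.09, 7.04 and 7.10 against 8.98, 8.50 and 7.66 (-1.31 ± 0.36, adjusted p = 0.012) and lost its call without GFP-negative 1. Mxi1, a Max-binding repressor, rose by 0.92 ± 0.24, a call lost under cyclic loess and without the 2 arrays that stood apart. Mlx (0.70, adjusted p = 0.062) and Mxd1 (-0.47, adjusted p = 0.11) did not pass, and Max had no probe set of its own. After cyclic loess 4 genes of the network were lower and none was higher, and with arrays centred 3 were higher and 2 lower. With probe sets averaged 3 were higher and 1 lower.

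Genes of the Shh pathway fell in 7 of 11 cases and rose in none, with a median of -1.42; 14.7% of all genes were lower. Gli1, the transcription factor that reads out the pathway, was at 3.45, 3.64 and 3.60 in the tumours, below background, and at 7.59, 6.95 and 6.46 in the GFP-negative cells (-3.44 ± 0.27, adjusted p = 2e-06), which makes it at least 4.70-fold lower. Hhip, a membrane protein that binds Hedgehog ligands and is itself a pathway target, read 5.74, 4.66 and 6.37 against 9.57, 8.99 and 8.94 (-3.57 ± 0.67). Gli3, the main repressor of the family, fell by 2.51 ± 0.27, the coreceptor Boc by 1.51 ± 0.26 and the inhibitor Sufu by 1.36 ± 0.27. Activators and inhibitors of the pathway were thus both among the genes that fell. Ptch1, the receptor and a target, read 9.17, 9.26 and 9.56 against 11.05, 10.53 and 10.66; the groups did not overlap, but with an error of 0.89 shared over the 5 groups the difference of -1.42 did not pass (adjusted p = 0.26). On the 6 arrays alone it passed (adjusted p = 0.0049), and 8 genes of the list were lower. With probe sets averaged 6 were lower and the list median was -0.69. Smo, the signal transducer, read within 8.46 to 9.0 on all 6 arrays (-0.12, adjusted p = 0.63).

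Markers of granule neuron progenitors gave no single direction, with 2 of 11 higher (18.2%), 3 lower (27.3%) and a median of -0.22, beside 19.1% and 14.7% of all genes. Mycn, whose direction depends on the probe set, is 1 of the 3; with probe sets averaged 3 genes were higher, 3 lower and the median was 0.11. The median was also above 0, at 0.02, without Myc 1. Meis1 fell (7.96, 7.86 and 8.62 against 10.50, 10.07 and 10.44; -2.19 ± 0.42) and Zic2 fell by 1.33 ± 0.34, a call lost with array weights and without the 2 arrays that stood apart. Nhlh1, a helix-loop-helix factor of cells leaving the progenitor state, read 8.64, 7.48 and 8.00 against 4.34, 4.86 and 4.14, a rise of 3.59 ± 0.26. Barhl1, a homeobox gene of this lineage named after its values were seen, was below background in both groups (means under 4.77) against 9.11 in GFP-positive cells.

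Neuronal genes were among the stronger rises. Of 15 genes of the neuronal cytoskeleton and synapse, 9 rose and 1 fell, with a median of 2.09. Tubb3, neuronal tubulin, read 11.16, 10.72 and 10.70 in the tumours and 7.43, 8.55 and 7.87 in the GFP-negative cells (2.91 ± 0.30, adjusted p = 1.3e-05). Nefh, the heavy neurofilament chain, read 8.77, 8.26 and 8.81 and was below background in all GFP-negative arrays, an at least 14.4-fold higher signal. Camk2b, a calcium-dependent kinase of neurons, was below background in all GFP-negative arrays and at least 5.58-fold higher in the tumours. Stmn2, a regulator of growing microtubules, rose by 2.95 ± 0.47 and Syp, synaptophysin, by 2.36 ± 0.29. Syt1, the calcium sensor of synaptic vesicles, fell instead (4.58, 3.96 and 5.39 against 7.88, 6.64 and 7.12; -2.57 ± 0.54). GFP-positive cells read at least as high as the tumours for some of these genes, with means of 11.49 for Tubb3 and 12.83 for Stmn2, but 3.37 for Nefh. Myc 3 was the highest tumour in 11 of the 15 genes, and without the 2 arrays that stood apart 6 were higher.

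Granule neuron genes rose in 5 of 16 cases (31.2%) and fell in 3 (18.8%), with a median of 0.12, beside 19.1% and 14.7% of all genes. Neurod1, which drives granule cell differentiation, read 11.93, 11.66 and 11.95 against 7.68, 9.45 and 9.58 (2.94 ± 0.42, adjusted p = 0.00015). Pde1c, a calmodulin-dependent phosphodiesterase, read 8.83, 9.24 and 8.87 against 5.46, 4.86 and 5.01 (3.87 ± 0.25). Rbfox3, the NeuN antigen of mature neurons, rose by 2.12 ± 0.16 and Reln, the secreted protein that guides migrating neurons, by 1.51 ± 0.32. Etv1, an ETS factor of maturing granule cells, fell by 1.87 ± 0.28. Genes of the mature granule cell such as Gabra6, Cbln3 and Slc17a7, named after their values were seen, were below background in both groups. Only 1 gene of the list was lower without GFP-negative 1, GFP-negative 2 or Myc 1. Purkinje cell genes split, with 2 of 11 higher (18.2%), 3 lower (27.3%) and a median of 0.01, so that the share higher was near that of all genes. Lhx1, also counted among the GABAergic genes, read 9.84, 10.37 and 9.39 against 7.64, 8.03 and 7.66 (2.09 ± 0.30), whereas its relative Lhx5 was below background in the tumours and read 6.41, 7.59 and 7.33 in the GFP-negative cells, at least 5.07-fold lower. Rora fell by 1.01 ± 0.23 and Slc1a6 by 0.53 ± 0.15, both calls lost with arrays centred, and Foxp2 rose by 1.27 ± 0.39, a call lost without GFP-negative 3 or Myc 3.

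Most cerebellar GABAergic genes were below background in the tumours, 8 of the 10 measured, of which 3 were below it in both groups. In this list 6 genes fell and 1, Lhx1, rose, with a median of -1.54, or -0.75 with probe sets averaged. Ptf1a, the factor that commits cerebellar progenitors to GABAergic fates, read 3.97, 3.82 and 4.11 in the tumours and 11.24, 10.68 and 10.72 in the GFP-negative cells, at least 69.1-fold lower (adjusted p = 1.8e-09). Tfap2b, which acts downstream of Ptf1a, read 3.47, 3.19 and 3.39 against 9.81, 10.49 and 10.94, at least 50.1-fold lower, and Tfap2a was at least 18.6-fold lower. Gad1, the GABA-synthesising enzyme, read 3.60, 3.35 and 3.64 against 7.69, 9.15 and 8.35, at least 12.3-fold lower. Slc32a1, the vesicular GABA transporter, was weak in the GFP-negative cells (4.62, 6.37 and 5.50) and below background in the tumours. No tumour array lay apart from the other 2 for these 5 genes. GFP-positive cells were not low for them all, with means of 9.28 for Gad1 and 8.87 for Tfap2b, but of 5.92 for Ptf1a. Neurog2, a proneural factor outside the list and among the largest falls, read 3.70, 3.94 and 4.06 against 10.05, 9.49 and 10.08.

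Regional factors of the cerebellum and hindbrain fell in 6 of 16 cases and rose in none, with a median of -0.22; 9 of the 16 were below background in both groups. Pax3, a paired-box factor of the dorsal neural tube, read 4.71, 4.01 and 6.65 against 10.84, 10.76 and 10.87 (-5.70 ± 0.59). Irx1 was below background in all 3 tumours, at least 6.95-fold lower, and Irx2 fell by 2.09 ± 0.43. En2, an engrailed homeobox gene of midbrain and cerebellum, remained well above background in the tumours (8.39, 8.29 and 8.40 against 9.39, 9.0 and 9.44; -0.91 ± 0.19). Gbx2 fell by 0.87 ± 0.19 near background, a call lost on the 6 arrays alone, with arrays centred and with array weights. Among 10 forebrain neuron genes, 2 rose and none fell (median 0.05), and 8 were below background in both groups. The share higher, 20.0%, was near the 19.1% of all genes. Neurod6 read 6.07, 6.62 and 8.14 against 4.05, 5.62 and 3.83 (2.44 ± 0.77) and Bcl11b 5.89, 7.61 and 6.90 against 5.47, 5.29 and 5.43 (1.40 ± 0.47). Neither kept its call without GFP-negative 1 or without Myc 3. Dlx5 (-0.27), Emx1 (0.24) and Emx2 (-0.19) did not pass.

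Astroglial genes showed some of the deepest falls. Of 16 measured genes 14 fell and none rose, with a median of -3.06. Gdf10, a TGF-beta family ligand of Bergmann glia, read 3.19, 3.77 and 3.71 in the tumours and 12.56, 11.56 and 12 in the GFP-negative cells; its fall of 8.48 ± 0.40 (adjusted p = 2.7e-08), at least 154-fold, was the largest of all genes. Aldh1l1, the folate enzyme used as a pan-astrocyte marker, read 5.53, 3.61 and 5.05 against 11.07, 10.02 and 10.42 (-5.78 ± 0.39). Slc1a3, the glutamate transporter GLAST, read 5.44, 5.37 and 5.02 against 8.08, 8.23 and 8.66. Hopx fell by 3.72 ± 0.42 and Mlc1 by 3.70 ± 0.53. The tumours were not alike in this list. Its medians were 7.62, 5.47 and 8.38 in Myc 1, Myc 2 and Myc 3 against 11.37, 10.10 and 10.74 in the GFP-negative cells. Aqp4, the water channel of astrocyte endfeet, chosen after its values were seen, read 8.59, 3.45 and 8.68 against 12.35, 11.35 and 11.65, and without Myc 2 its fall of 4.88 ± 1.05 shrank by more than 1.5 times. Gfap did not pass (0.01, adjusted p = 1) and read 7.45, 3.42 and 7.20 against 7.77, 5.32 and 4.96, with Myc 2 lowest.

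Oligodendrocyte genes fell in 10 of 13 cases and rose in none, with a median of -3.43, and the size depended on the tumour. List medians were 5.32, 4.43 and 8.80 in Myc 1, Myc 2 and Myc 3 and 10.24, 10.03 and 8.99 in the GFP-negative cells, and of the 3 tumours Myc 3 read highest for all 13 genes. Enpp6, a marker of newly forming oligodendrocytes, read 4.64, 4.19 and 8.15 against 11.67, 10.73 and 11.02 (-5.48 ± 0.73, adjusted p = 9.1e-05). Nkx2-2, a transcription factor of the lineage, read 3.82, 3.94 and 5.55 against 9.20, 8.09 and 8.25 (-4.08 ± 0.55). Olig1 read 5.09, 4.43 and 9.27 against 10.88, 10.23 and 9.84, so that 2 tumours were near background and the third came within 1 log2 of a GFP-negative array. Mag, myelin-associated glycoprotein, fell by 3.65 ± 0.80 and Ugt8a, an enzyme of myelin lipid synthesis, by 3.43 ± 0.81. Olig1, Mag and Ugt8a lost their calls on the 6 arrays alone, where 2 of the 13 genes were lower. The list median was -4.63 without Myc 3 and -2.35 without Myc 2. Without the 2 arrays that stood apart 12 genes were lower and the median was -4.83.

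All 17 microglia and macrophage genes fell, with a median of -3.88 and no overlap between groups; 16.8% of all genes were non-overlapping and lower. P2ry12, the purinergic receptor of homeostatic microglia, read 3.82, 3.61 and 3.62 in the tumours and 9.08, 10.21 and 9.20 in the GFP-negative cells, at least 26.5-fold lower (adjusted p = 2.3e-08). Csf1r, the receptor that microglia need to survive, read 5.31, 4.95 and 5.20 against 9.13, 10.16 and 8.57 (-4.14 ± 0.34). The complement genes C1qb (-4.07 ± 0.34) and C1qc (-4.21 ± 0.39) and the protease gene Ctss (-3.85 ± 0.38) fell but stayed above background, with Ctss at 9.0, 7.98 and 8.02 in the tumours. In the log2 of the summed signal of the list, the tumours ran from 10.37 to 11.07 and the GFP-negative cells from 14.23 to 15.47. Myc 1 was the highest tumour in 15 of the 17 genes. Mrc1, the mannose receptor of macrophages at brain borders and among the largest falls, read 3.96, 4.51 and 4.65 against 10.09, 10.90 and 10.12.

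**Figure D4:**
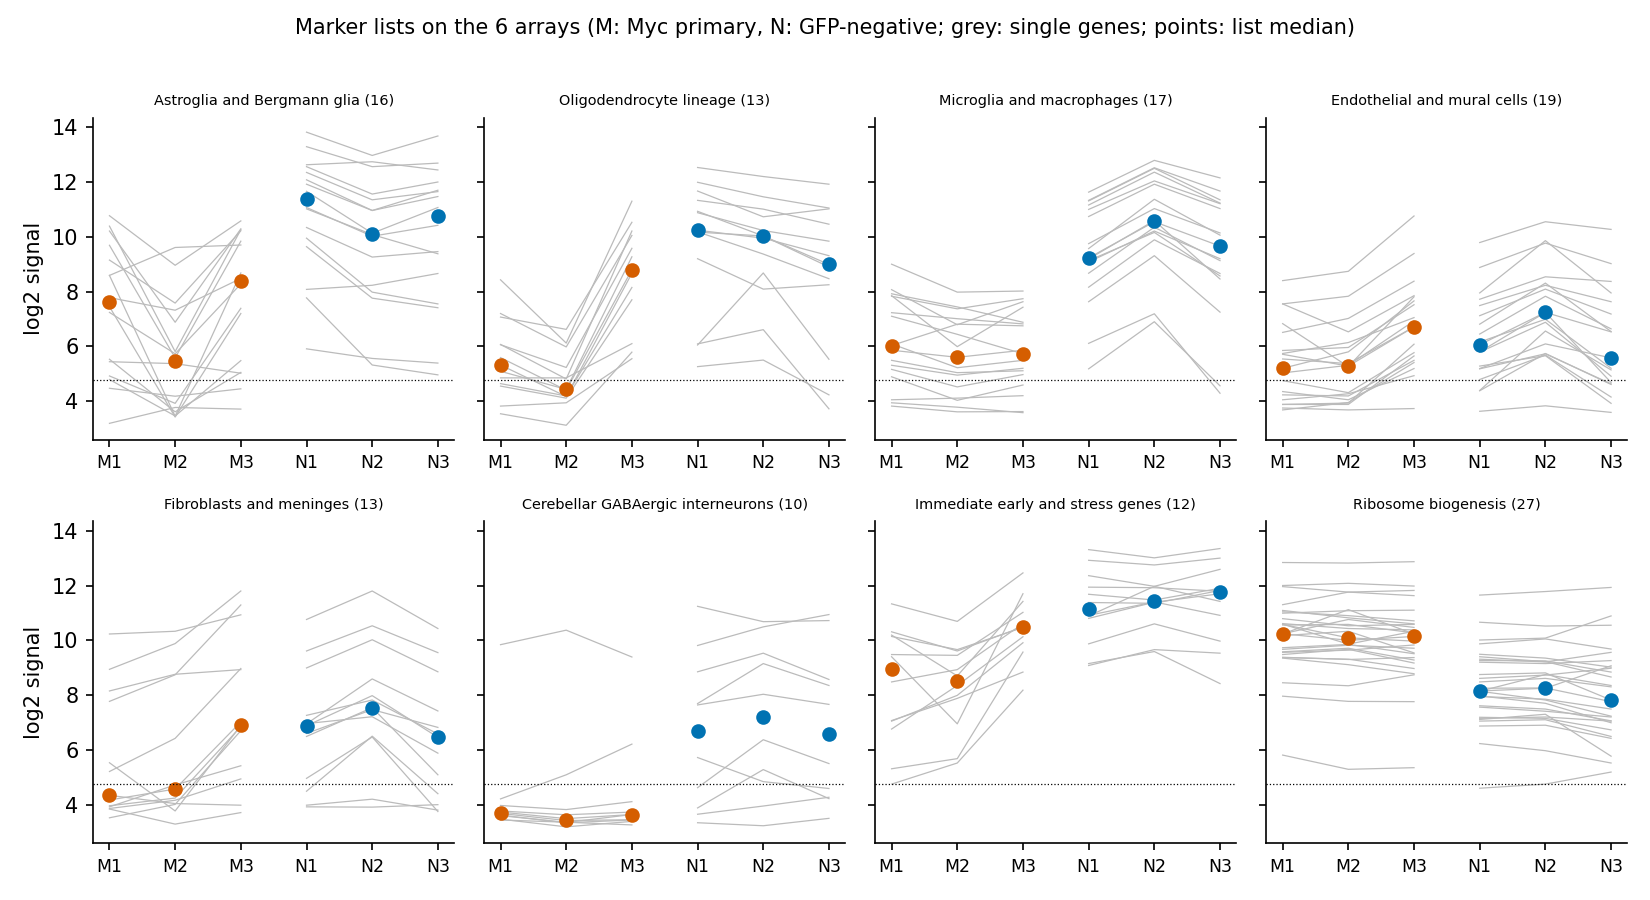
Log2 signal of 8 gene lists on Myc primary arrays (M1 to M3) and GFP-negative arrays (N1 to N3); grey lines join the values of a gene, coloured points are list medians, dotted lines mark the background of 4.77 and numbers in the titles are genes measured. Oligodendrocyte and fibroblast medians were higher in M3 than in M1 and M2, whereas ribosome biogenesis medians lay between 10.09 and 10.24 in all 3 tumours.

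Endothelial and mural genes fell in 8 of 19 cases (42.1%) and rose in 1 (5.26%), with a median of -0.46. Among all genes 14.7% were lower and 19.1% higher. Cldn5, the tight junction protein of brain endothelium, read 6.83, 5.26 and 7.81 against 9.79, 10.55 and 10.27 (-3.57 ± 0.60). Tek, the angiopoietin receptor, fell by 2.69 ± 0.39, Kdr, the main VEGF receptor, by 2.31 ± 0.35 and Vtn by 1.92 ± 0.44. Acta2, smooth muscle actin, rose (7.55, 7.83 and 9.39 against 4.39, 6.56 and 5.14; 2.89 ± 0.64). Myc 3 was the highest tumour in 18 of the 19 genes, and 4 genes were lower without GFP-negative 2, Myc 1 or Myc 2, or on the 6 arrays alone. Without Myc 3, 10 were lower, and without the 2 arrays that stood apart 12 were. The list median was -0.07 without GFP-negative 2, -0.28 without Myc 1, -0.82 without GFP-negative 3 and -1.05 without Myc 3. Of the fibroblast and meningeal genes, 5 of 13 were lower (38.5%) and 2 higher (15.4%), with a median of -1.63. The share higher was below that of all genes. Slc6a13, a GABA transporter of leptomeninges, was below background in all 3 tumours, at least 5.06-fold lower. Lama1 fell by 2.90 ± 0.31 and Dcn, decorin, by 3.03 ± 0.68, the last not on the 6 arrays alone. Mgp, matrix Gla protein, read 8.94, 9.88 and 11.80 against 4.49, 6.5 and 4.40 (5.08 ± 0.74), and Ptgds, prostaglandin D synthase, read 10.23, 10.33 and 10.93 against 6.95, 8.59 and 7.42 (2.84 ± 0.53). Mgp and Ptgds were thus high in all 3 tumours, while of the 3 tumours Myc 3 read highest for 11 of the 13 genes. The list median was -2.58 without Myc 3, -0.99 without Myc 1 and -1.05 without GFP-negative 2, without GFP-negative 2 or Myc 2 the count lower was 3, on the 6 arrays alone it was 2, without the 2 arrays that stood apart it was 8, and with array weights it was 10.

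Blood cells were represented in the GFP-negative samples. Hba-a1, alpha globin, read 13.85, 13.96 and 14.12 there and 7.49, 7.57 and 9.10 in the tumours (-5.93 ± 0.80), and Alas2, the erythroid enzyme of haem synthesis, fell to below background, at least 2.12-fold lower. Epb42 (0.29) and Slc4a1 (-0.19) did not pass, which left 2 of 4 erythroid genes lower and a median of -1.20. Of 10 lymphocyte genes 9 were below background in both groups, among them Ms4a1, Cd3g, Cd4 and Cd8a. Cd79b, a B-cell receptor chain, fell from 4.45, 4.99 and 4.79 to 3.80, 3.71 and 3.59 (-1.04 ± 0.13), the only gene of this list to pass (median -0.08). The GFP-negative mean was below background for all 10 genes, Cd79b among them, so its change lies at the floor.

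Beside the growth lists these marker values move with the groups: 14 of 16 astroglial, 10 of 13 oligodendrocyte and 17 of 17 microglial genes were lower in the tumours, and their part in the rises of other genes was not tested. The log2 of the summed signal ran from 10.99 to 13.05 against 15.10 to 15.90 for the astroglial list and from 8.80 to 13.16 against 13.64 to 14.55 for the oligodendrocyte list. The ribosome biogenesis median lay between 10.09 and 10.24 in the 3 tumours, in which the oligodendrocyte median ran from 4.43 to 8.80.

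Neural stem and progenitor genes fell in 7 of 15 cases (46.7%) and rose in 2 (13.3%), beside 14.7% lower and 19.1% higher among all genes. Their median was -0.93, or -0.47 without Myc 1 and -1.25 without the 2 arrays that stood apart. Sox2, a factor of neural stem cells and of Bergmann glia, read 6.47, 5.70 and 8.58 against 11.22, 10.59 and 11.33 (-4.13 ± 0.66), and Sox9 read 5.20, 5.80 and 6.22 against 8.58, 7.75 and 8.52 (-2.54 ± 0.25). Lhx2 was below background in the GFP-negative cells and read 5.89, 7.33 and 6.07 in the tumours, at least 3.17-fold higher. Prom1, the CD133 antigen named after its values were seen, did not pass (10.48, 9.18 and 9.34 against 10.05, 9.71 and 9.43). Notch pathway genes fell in 6 of 14 cases (42.9%) and rose in 3 (21.4%), the share higher being near that of all genes. Their median was also -0.93, or -0.67 without GFP-negative 1 and -1.48 without the 2 arrays that stood apart. Notch1, a receptor, read 7.25, 6.74 and 8.28 against 10.98, 10.51 and 10.80 (-3.34 ± 0.45, adjusted p = 9.9e-05), and Notch3 fell by 2.69 ± 0.42. The targets Hes1 (4.45, 4.50 and 5.06 against 8.17, 7.27 and 7.68) and Hes5 (5.05, 4.64 and 4.54 against 8.32, 6.73 and 7.56) fell to near background. Mfng, a glycosyltransferase that modifies Notch, rose by 2.79 ± 0.59. The ligand gene Dll1 fell by 2.34 ± 0.50 and its relative Dll3 rose by 2.85 ± 0.84, a call lost without GFP-negative 3 or Myc 2; both were named after their values were seen. GFP-positive cells averaged 5.82 for Notch1 and 4.35 for Hes1.

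Of 12 immediate early and stress genes, 11 fell, with a median of -2.05, and no gene rose. Fos read 11.33, 10.69 and 12.46 against 13.31, 13.01 and 13.35 (-1.73 ± 0.37), Klf6 7.05, 7.99 and 9.91 against 10.80, 11.39 and 11.70 (-2.98 ± 0.56) and Jun 10.19, 8.70 and 11.42 against 12.36, 11.97 and 12.59 (-2.20 ± 0.51). Dusp1, a phosphatase that ends MAP kinase signals, fell by 1.90 ± 0.42 and Btg2 by 1.55 ± 0.37. Of the 3 tumours, Myc 3 read highest for all 12 genes; on the 6 arrays alone 7 were lower, Jun not among them, and without Myc 3 the median was -2.64. Such genes are known to respond quickly when tissue is dissociated, and the preparation of the samples, which differed between the groups, cannot be told apart from the group here.

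Other lists gave mixed or small changes, to be set beside the 19.1% of all genes that were higher and the 14.7% that were lower. The injected and the sorted cells lacked Trp53. The Trp53 genotype of the nude hosts was not given, and any host cells in the tumours were not told apart. Of 15 p53 targets, 4 rose and 2 fell (median 0.44). The median was 0.07 without Myc 2, 0.13 without GFP-negative 1, 0.67 without Myc 3 and 0.72 without Myc 1. Plk2 fell by 3.25 ± 0.46, Aen rose by 1.46 ± 0.29 and Zmat3 by 1.56 ± 0.32, whereas Perp, at least 1.92-fold higher than GFP-negative cells below background, lost its call without GFP-negative 3 or Myc 1, and Trp53inp1 (-1.63) lost it without Myc 2 or Myc 3. Without GFP-negative 3, and on the 6 arrays alone, 2 rose and 2 fell. Interferon and MHC class I genes passed in 1 of 9 cases, Ifit3, which read 6.71, 7.04 and 4.81 against 4.17, 4.04 and 4.35. Psmb8 (-1.18, adjusted p = 0.052), H2-D1 (-0.99, adjusted p = 0.054), H2-K1 (-0.82) and Ifit1 (1.68, adjusted p = 0.076) did not, and H2-D1 turned to 0.61 when its probe sets were averaged. Without Myc 3, 3 genes of this list were higher and none lower, and without GFP-negative 1, 1 was higher and 3 were lower. Photoreceptor and human group 3 markers passed in 3 of 11 cases, 2 higher (18.2%) and 1 lower (9.09%). Npr3, the natriuretic peptide clearance receptor used to recognise group 3 tumours, read 8.22, 7.96 and 8.12 and was below background in the GFP-negative cells, at least 10.1-fold higher. Gabra5 read 6.72, 3.50 and 6.25, with Myc 2 at background, and lost its call without GFP-negative 2, Myc 1 or Myc 3; Prdm1 fell to below background, at least 1.19-fold lower. On the 6 arrays alone only Npr3 passed in this list. The photoreceptor genes Nrl (-0.23) and Pde6b (0.31) did not pass and were below background in both groups. Of 14 oncofetal and pluripotency genes 9 were below background in both groups. Klf4 read 6.07, 6.12 and 9.69 against 10.90, 11.44 and 11.42 (-3.96 ± 0.89), Hmga2 fell by 1.70 ± 0.21, Dnmt3b, a de novo DNA methyltransferase, rose by 1.18 ± 0.23 and Utf1 by 0.72 ± 0.19, the last not on the 6 arrays alone. Sall4 (0.34) did not pass.

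The 15 largest rises and 15 largest falls show the extremes. For 10 genes of each set the lower group was below background on every array, so that only a lower bound of the fold can be given for them. Ppp1r14a, an inhibitor of myosin phosphatase, read 9.77, 10.09 and 9.67 in the tumours and 3.45, 3.95 and 3.97 in the GFP-negative cells, at least 33.7-fold higher (adjusted p = 1.8e-07). Ptger3, the prostaglandin E receptor EP3, read 8.44, 8.64 and 8.31 against 3.25, 3.11 and 3.34, at least 12.9-fold higher, and Umodl1 was at least 21.5-fold higher. Ydjc (9.01, 8.90 and 9.35 against 4.82, 4.18 and 4.30) and the mitochondrial iron-sulfur gene Cisd3 (10.93, 10.75 and 10.85 against 6.95, 6.78 and 5.51) rose by 4.65 ± 0.22 and 4.43 ± 0.28. Ptger3, Nefh, Umodl1 and Ydjc were also low in GFP-positive cells (means of 3.09, 3.37, 3.98 and 4.56) and in Shh tumours (3.12, 3.61, 3.99 and 4.44). They averaged 7.10, 7.71, 7.93 and 9.14 in secondary Myc tumours.

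Another group of the largest rises was high in the granule lineage samples as well. The homeobox gene Uncx averaged 8.36 in the primary Myc tumours and 3.41 in the GFP-negative cells, beside 10.47 in GFP-positive cells and 9.81 in Shh tumours. Nrn1, neuritin, a secreted promoter of neurite growth, averaged 8.75 and 3.71, beside 11 and 10.84. Tex14, known from germ cell bridges, averaged 9.47 and 4.05, beside 9.18 and 8.69, and the transcription factor Ebf3 rose by 4.46 ± 0.35, beside 10.93 and 10.53. For these 4 genes GFP-positive cells and Shh tumours were thus high too and the GFP-negative cells were the low group. Caln1 and the semaphorin Sema3g, both below background in all GFP-negative arrays, were at least 15.1-fold and 10.9-fold higher, and Tff3, trefoil factor 3, rose by 4.71 ± 0.89. Tff3 read 10.25, 10.27 and 7.46 in the tumours, with Myc 3 lowest.

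Of the falls not yet described, Grm3, a metabotropic glutamate receptor, read 3.85, 3.75 and 3.56 against 10.94, 9.88 and 10.64, at least 52.6-fold lower. Gria1, the AMPA receptor subunit GluA1, read 3.75, 3.51 and 3.51 against 10.67, 10.18 and 10.19, at least 47.7-fold lower. Scube2, a secreted factor that helps release Hedgehog ligands, was at least 26.8-fold lower, and the adhesion molecule Chl1 at least 32.1-fold lower. Egfr, the epidermal growth factor receptor, read 3.74, 3.88 and 5.71 against 10.91, 10.21 and 10.71, and was high in GFP-positive cells (9.16) and Shh tumours (8.68). Ednrb, endothelin receptor B, fell by 6.07 ± 0.51 and Tril, a Toll-like receptor partner, by 6.05 ± 0.49, with Myc 2 lowest in both (4.69 and 4.09). Apart from Egfr, Tfap2b and Chl1, whose means in GFP-positive cells were 9.16, 8.87 and 7.16, and Hba-a1, at 9.09, the genes of this set averaged below 6 in GFP-positive cells.

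**Figure D5:**
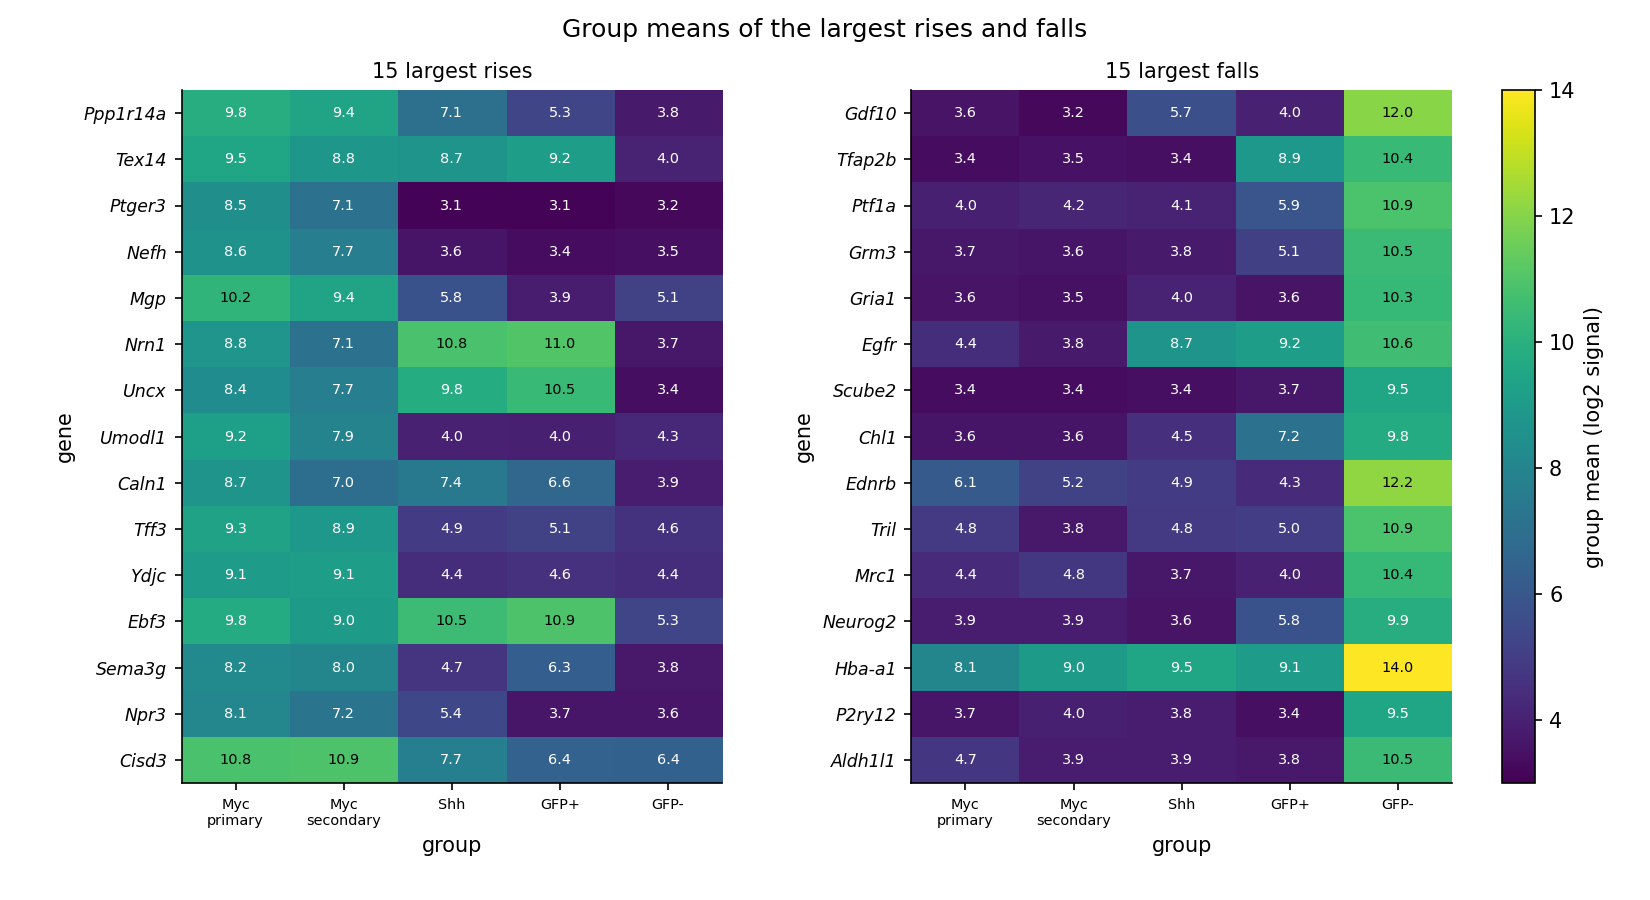
Group means (log2 signal, colour and printed value, 3 arrays each) of the 15 largest rises (left) and 15 largest falls (right) in the 5 groups. Uncx, Nrn1, Tex14 and Ebf3 were high in every group but the GFP-negative cells, whereas Ptger3, Nefh, Umodl1 and Ydjc were high in the 2 Myc tumour groups.

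Against GFP-positive cells the same tumours differed in 4232 genes (24.8%; 14.5% higher and 10.3% lower in the tumours), and GFP-positive differed from GFP-negative cells in 4505 (26.3%; 12.6% higher and 13.8% lower in GFP-positive cells). These 3 comparisons share samples, so their lists are given side by side only. Ribosome biogenesis genes were higher in the tumours than in GFP-positive cells in 23 of 27 cases (median 1.61), and higher in GFP-positive than in GFP-negative cells in 8 (median 0.39). For mitosis the tumours were higher than GFP-positive cells in none of 23 genes and lower in 4 (median -0.21), while GFP-positive exceeded GFP-negative cells in 19 (median 0.87). Astroglial genes had a median of -5.13 in GFP-positive against GFP-negative cells and of 1.59 in tumours against GFP-positive cells, and microglial genes -6.03 and 1.87. Median levels of the astroglial list were 10.73 in GFP-negative cells, 7.0 in the primary Myc tumours and 4.71 in GFP-positive cells.

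The sex-linked genes were read as a check of the samples. Xist, the RNA of the inactive X chromosome, read 7.30, 6.97 and 6.85 in the tumours and 11.13, 11.73 and 11.15 in the GFP-negative cells; with a standard error of 1.76 the difference of -4.30 did not pass (adjusted p = 0.081), whereas on the 6 arrays alone it did (adjusted p = 0.00039). The Y-linked genes Eif2s3y (8.74, 9.29 and 8.96 against 9.27, 8.72 and 9.15), Kdm5d and Uty did not pass. The sexes of donors and hosts were not given.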

How the data were processed

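The values are log2 signals of Affymetrix HT_MG-430_PM arrays as the authors deposited them, made with RMA in Partek 6.5 per the submitters' processing notes. The table held 45141 probe sets on 15 arrays, with values from 2.66 to 14.1. Of these, 104 were controls, 15588 had no listed gene, 551 had several and 28898 had 1, which gave 17097 genes, each read by its probe set with the highest mean over the 15 arrays. Symbols were updated through gene identifiers of GRCm38.p6 for 28689 probe sets and kept as listed for 209. The difference of Myc primary minus GFP-negative was fitted with limma 3.58.1 (R 4.3.3, statmod 1.5.0) over all 15 arrays in 5 groups, with 10 residual degrees of freedom, a two-sided moderated test and Benjamini-Hochberg adjustment over all genes at 0.05. Tables and figures used Python 3.11.15 with numpy 2.4.6, pandas 2.3.3 and matplotlib 3.10.9. The number of arrays, 3 in each group, limits the precision. Background was set at 4.77, the value that 95% of the signals of 23 nonspecific control probe sets did not exceed. Where every array of the lower group was below it, the fold is a lower bound, set against the higher of each array's own value and background.

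The 30 gene lists hold 476 genes, of which 418 were measured and 10 stand in more than 1 list. The members and lists were chosen with earlier results of these data known. Named genes are the 15 largest rises and falls that passed with at least a 2-fold change and no overlap (predicted genes left out), Cdkn2c, Trp53, Atoh1, the 3 Myc family genes, Ptch1 and Gli1, and in each list up to 5 members with the smallest adjusted p. Other genes named are said to be so after their values were seen, or fill a list's account. Tested on simulated data for this comparison over 17097 genes, the share of shifted genes called was 44.8% at 1 log2, 92.5% at 2 log2 and 98.5% at 3 log2. There were 14 false calls among 171, a share above the 0.05 set for the adjusted p. The simulation used normal noise and shifted a far smaller part of the genes than the 33.8% called in the data. Its shares therefore need not hold for the comparison itself. Alternatives changed the probe set rule, the filter on dim genes, the normalization, the samples, the variance model and array weights, and left out arrays.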

Additional observations from a re-analysis of the deposited data

How the results depend on the processing

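The numbers of genes changed, higher, lower and changed at least 2-fold stayed within 1.5 times under the alternatives run, apart from 3 counts. Testing every one of 28898 probe sets gave 8785 changed and 5087 higher, with more features tested, and the 6 arrays alone gave 1672 lower, with 4 residual degrees of freedom in place of 10. Leaving out 1 array at a time gave 4969 to 5865 changed, 2741 to 3303 higher, 2107 to 2823 lower and 3365 to 3702 changed at least 2-fold. An alternative added a term for a run, which was assumed from the gap in sample title numbers between 212 and 219 and is named by no label. It is the same fit as leaving out GFP-negative 3, since that array alone separates the assumed runs within a group. Some directions turned. The difference of Mycn was 0.79 (limma adjusted p = 0.00062) and that of H2-D1 0.61 (limma adjusted p = 0.023) with probe sets averaged, and that of Myc ran from -1.79 (without Myc 3) to 0.10 (without Myc 2) when 1 array was left out. With arrays centred, Cd4, Slc4a1 and Emx2 each gave 0.02 and Eif2s3y 0.16. Slc4a1 gave 0.04 without GFP-negative 2 and -0.46 without GFP-negative 1. Without GFP-negative 3, or with the run term, Cd4 and Eif2s3y gave 0.00 and Kdm5d -0.19. Kdm5d gave -0.03 after cyclic loess, -0.00 without Myc 2, -0.23 without Myc 3 and GFP-negative 3, and 0.60 without GFP-negative 1. Cd4 reached -0.35 without GFP-negative 1. Eif2s3y gave 0.17 with array weights, 0.06 without GFP-negative 1, 0.08 without Myc 1, 0.02 without Myc 3 and GFP-negative 3, and -0.21 without GFP-negative 2. The cause was not tested for any of these. List medians near 0 moved with the setting. With the members kept, they ran from -0.62 to 0.04 for the Myc network, -0.52 to 0.11 for granule neuron progenitors, 0.14 to 0.43 for G1 control, 0.04 to 0.32 for granule neurons, -0.07 to 0.22 for Purkinje cells, -0.37 to 0.01 for regional factors, 0.01 to 0.26 for forebrain neurons and -0.16 to 0.12 for lymphocytes. Of the 170 named genes measured, 15 lost their call and 3 gained one on the 6 arrays alone. No paired analysis was possible because the labels give no replicate numbers shared between the groups. Signals below background limit what can be said of 6190 genes that were below it in both groups.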

Other observations

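Some genes outside the lists varied more among the 3 tumours than between the groups. They were chosen after their values were seen, by their range over the tumours, and those named did not pass between the groups by limma. Ttr, transthyretin, the secreted carrier protein of choroid plexus, read 9.55, 9.53 and 3.79 in Myc 1, Myc 2 and Myc 3 and 8.47, 13.06 and 8.76 in the GFP-negative cells. Adm, adrenomedullin, a hypoxia-responsive peptide hormone, read 4.44, 10.13 and 5.40, high in Myc 2 alone. The cytokine gene Il6 read 3.26, 7.26 and 8.53 and the chemokine gene Cxcl1 5.43, 9.61 and 10.31, both lowest in Myc 1. Capn6 read 5.02, 4.09 and 9.62, high in Myc 3 alone.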
